A study of Mus musculus with 24 samples.

Results

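Sites of the zinc finger factor Klf4 were compared with regions carrying acetylated lysine 27 of histone H3 (H3K27ac) in asynchronously growing mouse embryonic stem cells. The comparison used 5 of the 24 samples of the series: 3 Klf4 libraries and 2 H3K27ac libraries, each with its own list of chromatin immunoprecipitation sequencing (ChIP-seq) peaks. All 5 came from V6.5 cells, an unedited line of C57BL/6-129 background derived from the E3.5 embryo. Per the labels, the cells were grown on irradiated feeder fibroblasts with 15% serum and 1000 U/ml of the cytokine LIF. The labels also describe expansion on gelatin with MEK and Gsk3 inhibitors before cells were synchronized, and do not say whether the asynchronous cultures were grown that way. Overlapping peaks of the same antibody (1 bp or more in common) were joined into merged regions. A Klf4 site was a merged region with a peak in 2 or more of the 3 Klf4 lists, and 14015 of 27623 merged regions met this. An H3K27ac region had a peak in both lists, which 34684 of 51499 merged regions did. A Klf4 site that shared at least 1 bp with an H3K27ac region was called acetylated.

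Klf4 binds GC-rich DNA through 3 C-terminal zinc fingers and is part of the network that holds stem cells in the naive state, together with Oct4, Sox2, Nanog and Esrrb. It is also known as a regulator of epithelial identity in skin and gut. H3K27ac is written by the acetyltransferases p300 and CBP, lies on nucleosomes that flank active promoters and enhancers, and is widely used to separate active from inactive regulatory elements.

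The Klf4 lists held 10575, 21307 and 16455 peaks, with median fold enrichments over local background of 5.01, 3.29 and 5.42. The H3K27ac lists held 47475 and 46491 peaks, with median folds of 6.03 and 5.95. Both H3K27ac titles share a code, while each Klf4 title has a code of its own that neither H3K27ac title carries, so the factor and the mark were not read in the same set of libraries. The labels do not say whether libraries of an antibody came from separate cultures, so the spread between lists may be technical in part. Read depth was unknown. All 10 embryonic stem cell markers examined, among them Pou5f1 (which encodes Oct4), Nanog and Esrrb, had an acetylated Klf4 site within 20 kb, as did 41.5% of all protein-coding genes. Of 5 trophoblast and 5 primitive endoderm markers none did, while 3 of 6 neural progenitor and 3 of 5 primed epiblast markers did. Of 6 feeder fibroblast markers 1 did, and in a longer feeder list of 12 genes 4 did. An H3K27ac region lay within that distance of 7 of those 12 genes and of 69.8% of all genes, and Col1a2, Postn and Thy1 had none.

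Most Klf4 sites were acetylated, and fewer than 1 in 3 H3K27ac regions held a Klf4 site. Of the 14015 Klf4 sites 9800 were acetylated and 4215 were not, shares of 69.9% (95% Wilson interval 69.2 to 70.7) and 30.1%. Counted over the sites with a peak in each Klf4 list, the acetylated share was 73.1%, 70.2% and 71.5% (SD 1.45 percentage points, n = 3). Of the 34684 H3K27ac regions 10662 held a Klf4 site, which is 30.7% (30.3 to 31.2), and 24022 did not. These intervals cover counting error only. For the 6 pairs of a single Klf4 list with a single H3K27ac list, 60.6% to 68.6% of Klf4 peaks met H3K27ac and 15.5% to 28.9% of H3K27ac peaks met Klf4. The share of H3K27ac regions was lower whenever a list was left out. Without Klf4 lists 1, 2 and 3, where a site then needed both remaining Klf4 lists, it was 24.3%, 15.97% and 21.0%. Without H3K27ac lists 1 and 2 it was 24.8% and 23.9%, where every peak of the remaining H3K27ac list counted as a region. This looser rule gave 46491 and 47475 regions, of which 11536 and 11365 held a Klf4 site, more than the 10662 above. When a Klf4 site had to be in all 3 lists the share was 15.6%.

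The overlap followed how many libraries had found the site. Regions with a peak in a single Klf4 list, which lie outside the Klf4 set, met H3K27ac in 45.5% of 13608 cases. Sites found in exactly 2 lists did so in 63.7% of 8090 cases, and sites found in all 3 lists in 78.4% of 5925. Read the other way, 47.4% of acetylated sites and 30.4% of sites without H3K27ac had a peak in all 3 lists. Of the 4215 sites without H3K27ac, 3545 (84.1%) met no peak of either H3K27ac list and 670 met a peak of 1 list. Among the 24022 H3K27ac regions without a Klf4 site, 4913 (20.5%) met a peak of 1 Klf4 list and 19109 met none.

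Acetylated sites within 20 kb of 30 naive pluripotency genes numbered 79. Their H3K27ac regions had a median width of 6800 bp, with a range of 1076 to 37343 bp, against a median of 1744 bp over all 9800 acetylated sites. The median H3K27ac folds were 29.5 and 25.6 in the 2 lists, with ranges of 6.18 to 46.1 and 4.49 to 42.6, against 12.2 and 11.4 over all acetylated sites. A region with several sites counts for each, and no test was made. At Nanog, a homeobox factor of the core network, 3 acetylated sites lay within 20 kb. The strongest (chromosome 6, 122702339 to 122703260, 4.23 kb from the gene) had Klf4 folds of 9.83, 7.50 and 9.99 in the 3 lists. It sat in an H3K27ac region of 11026 bp with folds of 39.8 and 35.3. At Tbx3, a T-box factor of naive cells, a site inside the gene (chromosome 5, 119681778 to 119682264) had Klf4 folds of 9.58, 10.1 and 12.7, in an H3K27ac region with folds of 30.1 and 27.001. At Klf4 itself a site overlapping the gene (chromosome 4, 55532156 to 55533102) had folds of 6.55, 4.19 and 7.21, in an H3K27ac region with folds of 29.3 and 21.8. These 3 sites were found in every Klf4 list, and list 2 gave the lowest of the 3 folds at Nanog and at Klf4.

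Promoters of both classes carried letters of the Klf4 consensus. The following stretches are the 250 bases before an annotated start, 5′ to 3′ on the strand of the gene, from RefSeq (GRCm38.p6, the mm10 assembly). Capitals mark GGGTGTGG or GGGCGTGG, or their reverse complements CCACACCC and CCACGCCC. The first 3 belong to naive pluripotency genes whose promoter met an acetylated Klf4 site, and the last 2 to epithelial genes whose promoter met a Klf4 site without H3K27ac.
Tdgf1, chr9:110946159-110946408, minus strand: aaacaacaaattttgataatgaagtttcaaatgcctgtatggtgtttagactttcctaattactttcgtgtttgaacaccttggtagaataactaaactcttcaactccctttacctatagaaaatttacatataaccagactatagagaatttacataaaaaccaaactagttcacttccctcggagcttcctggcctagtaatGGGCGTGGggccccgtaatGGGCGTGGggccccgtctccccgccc
Zfp42, chr8:43307010-43307259, minus strand: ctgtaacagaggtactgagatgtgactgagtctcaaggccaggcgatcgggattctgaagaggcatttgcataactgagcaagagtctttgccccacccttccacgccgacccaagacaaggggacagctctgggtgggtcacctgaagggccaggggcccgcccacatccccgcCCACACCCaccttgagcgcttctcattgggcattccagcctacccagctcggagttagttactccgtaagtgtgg
Tfcp2l1, chr1:118627695-118627944, plus strand: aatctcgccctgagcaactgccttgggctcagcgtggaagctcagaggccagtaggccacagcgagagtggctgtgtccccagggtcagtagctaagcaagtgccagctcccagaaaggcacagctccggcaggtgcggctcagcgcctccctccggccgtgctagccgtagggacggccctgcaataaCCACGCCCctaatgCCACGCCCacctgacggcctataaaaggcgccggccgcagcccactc
Krt18, chr15:102027966-102028215, plus strand: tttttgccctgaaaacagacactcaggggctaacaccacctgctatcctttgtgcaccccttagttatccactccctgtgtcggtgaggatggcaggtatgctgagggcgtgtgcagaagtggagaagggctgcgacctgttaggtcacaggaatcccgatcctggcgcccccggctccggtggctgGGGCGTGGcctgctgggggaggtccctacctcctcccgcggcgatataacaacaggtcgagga
Tjp3, chr10:81291582-81291831, minus strand: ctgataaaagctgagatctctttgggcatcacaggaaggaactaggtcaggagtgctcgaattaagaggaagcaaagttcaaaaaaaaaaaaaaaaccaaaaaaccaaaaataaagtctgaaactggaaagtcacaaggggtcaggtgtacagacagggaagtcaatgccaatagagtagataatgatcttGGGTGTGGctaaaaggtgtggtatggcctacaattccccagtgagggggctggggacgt

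Tdgf1 encodes the Nodal co-receptor Cripto, and Zfp42 (Rex1) and Tfcp2l1 encode factors of naive cells. The Klf4 site at the Tdgf1 promoter had folds of 9.50, 6.31 and 13.4 in the 3 lists, that at Zfp42 7.37, 9.16 and 21.3, and that at Tfcp2l1 4.74, 3.87 and 10.2. Krt18 encodes a keratin of simple epithelia and Tjp3 a tight junction scaffold. The Krt18 site (chromosome 15, 102027802 to 102028369) had folds of 3.27 and 7.16 in lists 2 and 3 and no peak in list 1, and its nearest H3K27ac region was 9.08 kb away. The Tjp3 site likewise had folds of 2.83 and 4.63 in lists 2 and 3 and no peak in list 1. Its nearest H3K27ac region was only 1.18 kb away, and Tjp3 also had an acetylated Klf4 site 0.987 kb from the gene. All 3 acetylated promoters had a peak in every list, and neither of the other 2 did. These 5 promoters are examples and do not stand for their classes. Over all Klf4 sites, 47.4% of those with H3K27ac and 30.4% of those without it had a peak in all 3 lists.

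Over all promoters, the consensus was less frequent at acetylated Klf4 sites than at Klf4 sites without the mark. The windows ran from 250 bases before to 50 after each of 32851 annotated starts. An acetylated site met 4234 of them (12.9%), a Klf4 site without H3K27ac 733 (2.23%) and an H3K27ac region without a Klf4 site 7502 (22.8%). Either 8-letter word, searched on both strands, was in 23.5% of promoters with an acetylated site (95% Wilson interval 22.2 to 24.8) and in 30.8% of those with a site lacking H3K27ac (27.6 to 34.3). It was in 7.40% of promoters with H3K27ac only and 5.13% of those with neither, against 8.58% of all promoters. Median GC content was 65.7% in the promoters with an acetylated site and 64.3% in those with a site lacking H3K27ac, while promoters with H3K27ac only and with neither had 60.0% and 48.3%. Within each quintile of GC content the order of the 2 bound classes was the same. In the quintile of highest GC the shares were 23.4% of 2504 promoters with the mark and 29.8% of 383 without it, and the quintile of lowest GC held 25 and 6 promoters of these classes. The order of the classes without a Klf4 site was not kept. Promoters with H3K27ac only held a word more often than those with neither in the quintile of lowest GC alone. In every other quintile they held it less often, with 9.4% against 10.1% in that of highest GC. These words hold the CACCC core that other Klf factors read, and GGGCGTGG resembles the GC box of Sp factors, so a match is not specific to Klf4. Neighbouring starts of a gene share bases, and the windows are not independent.

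**Figure D1:**
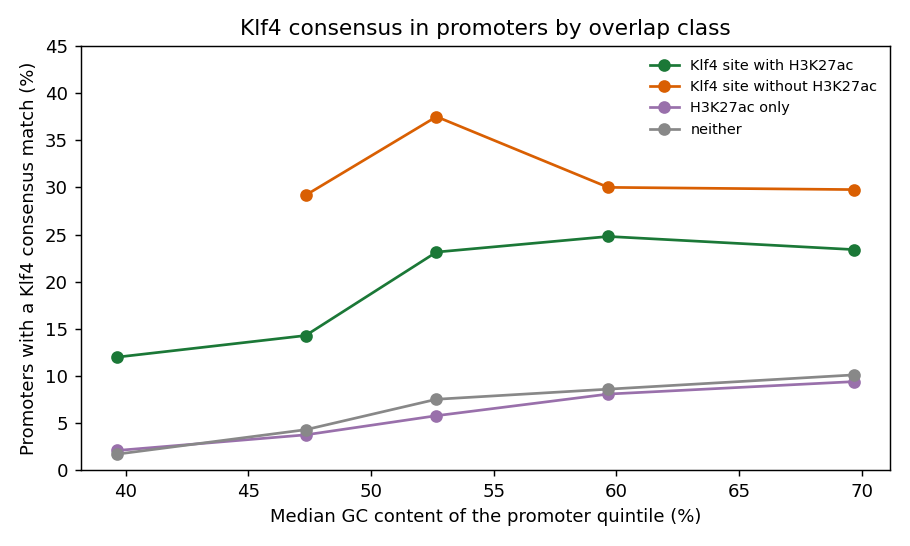
Share of promoters (%) with GGGTGTGG or GGGCGTGG on either strand against the median GC content (%) of 5 promoter quintiles, for promoters that met a Klf4 site with H3K27ac, a Klf4 site without it, H3K27ac only, or neither. Points with fewer than 20 promoters are left out. The line for Klf4 sites with H3K27ac lies below that for sites without it wherever both are drawn, and above the lines for promoters without a Klf4 site.

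The strongest Klf4 peaks were acetylated more often than the weakest in each list. From the weakest to the strongest quintile by fold, the share of sites meeting H3K27ac went 64.8%, 69.9%, 69.7%, 77.1% and 84.0% in list 1. It was 62.0% in the weakest and 82.3% in the strongest quintile of list 2, and 65.2% and 81.2% in those of list 3. The shares spanned a wider range on the side of the mark. Of H3K27ac regions in the weakest quintile by fold 15.1% (list 1) and 14.2% (list 2) held a Klf4 site, and of those in the strongest quintile 56.6% and 56.7%.

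**Figure D2:**
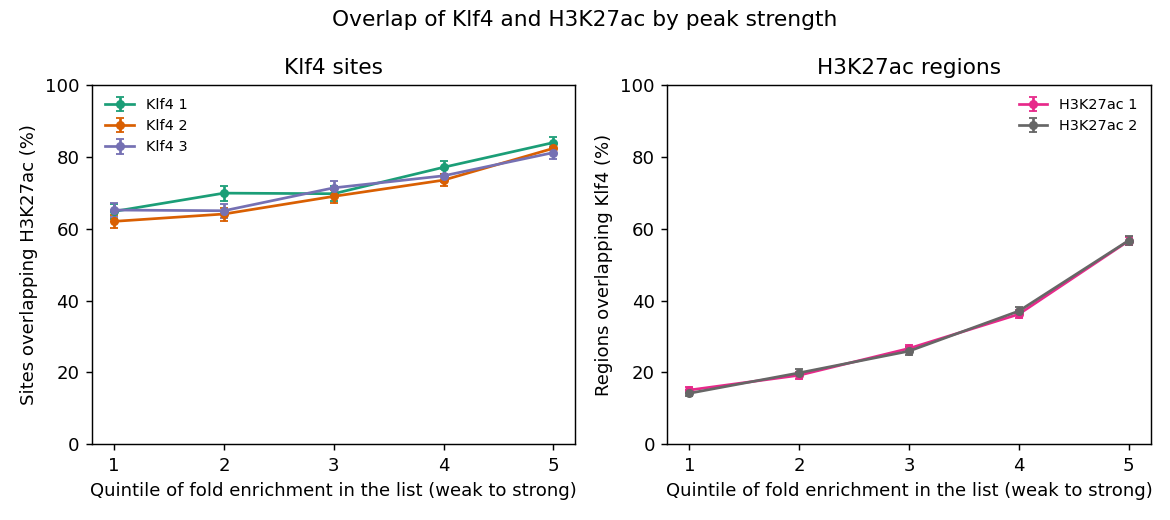
Left, share of Klf4 sites (%) that overlap H3K27ac by quintile of their fold enrichment, 1 line for each of 3 Klf4 lists. Right, share of H3K27ac regions (%) that hold a Klf4 site by quintile of fold, 1 line for each of 2 H3K27ac lists, with bars for 95% Wilson intervals on both sides. The Klf4 lines lie between 62.0% and 84.0%, and the H3K27ac lines between 14.2% and 56.7%.

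Acetylated Klf4 sites lay at gene ends more often than sites without the mark and had somewhat wider and stronger peaks. A peak counted as near a gene end when its nearer edge was within 1 kb of either end of a protein-coding gene, since the gene table used gives no strand. In the 3 lists 38.3%, 42.3% and 49.2% of peaks at acetylated sites were near a gene end, against 18.2%, 20.1% and 24.7% of peaks at sites without H3K27ac. The difference of 22.3 percentage points (SD 2.14, n = 3) had the same sign in every list, with no overlap between the classes. Median peak widths were 253, 342 and 399 bp at acetylated sites and 197, 254 and 327 bp at sites without H3K27ac, a mean log2 difference of 0.36 (SD 0.071, n = 3). Median folds were 5.24, 3.81 and 6.41 at acetylated sites and 4.92, 3.38 and 5.60 at sites without the mark, a mean log2 difference of 0.15 (SD 0.054, n = 3) that was 0.10 when peaks needed a −log10 q of 5 or more. An exact two-sided sign-flip permutation test over the 3 lists gave p = 0.25 for each of these 3 differences, which is the smallest p that 3 lists allow, so none could pass a threshold of 0.05.

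Width bears on all of this, because a wider region has more room to meet another. The acetylated share was 48.6% in the narrowest quintile of Klf4 sites and 88.1% in the widest. Within quintiles of width the difference in gene ends remained: 29.7% of acetylated sites and 12.2% of the others were near a gene end in the narrowest quintile, and 59.1% and 41.4% in the widest. The difference in fold did not hold within narrow sites. From the narrowest to the widest quintile its mean log2 value was 0.01, -0.02, 0.05, 0.10 and 0.11, and it was above 0 in 1, 1, 2, 3 and 3 of the 3 lists. By position, 82.9% of the 5117 Klf4 sites near a gene end were acetylated and 62.5% of the 8898 sites farther away.

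**Figure D3:**
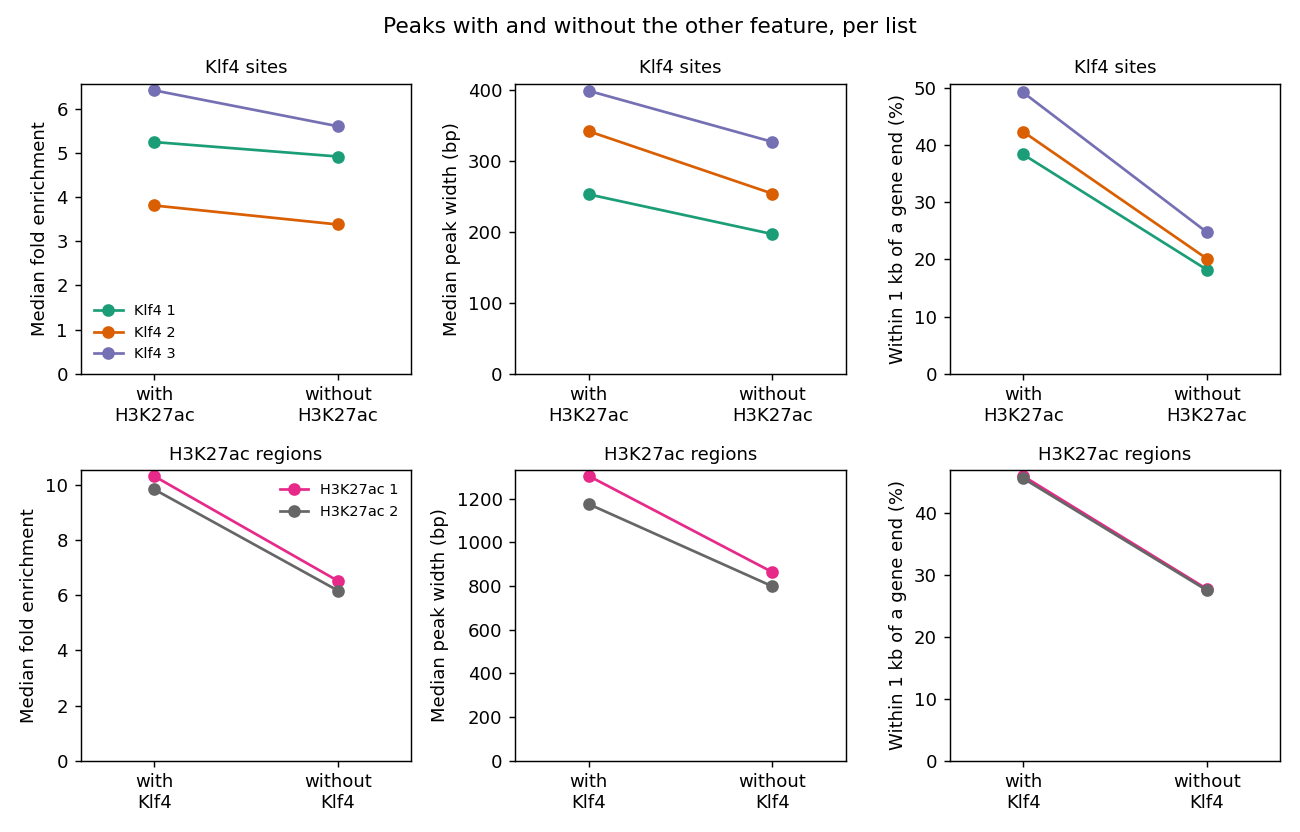
Median fold enrichment, median peak width (bp) and share of peaks within 1 kb of a gene end (%) for each list, with 1 line per list joining regions with the other feature (left) to regions without it (right). The upper panels show Klf4 sites in 3 lists and the lower panels H3K27ac regions in 2 lists. Every line is lower on the right, without the other feature, than on the left.

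H3K27ac regions that held a Klf4 site were stronger, wider and more often near a gene end than those that did not. Their median folds were 10.3 and 9.85 in the 2 H3K27ac lists, against 6.53 and 6.17 in regions without Klf4, a ratio of 1.59. Their median peak widths were 1304 and 1175 bp, against 863 and 798 bp without Klf4. Of their peaks 46.0% and 45.6% were near a gene end, against 27.7% and 27.5% without Klf4, a difference of 18.2 percentage points. This difference was 9.55 without Klf4 list 3 and 10.8 when peaks needed a −log10 q of 5 or more. Both lists agreed in sign for all 3 measures, but 2 lists cannot give a sign-flip p below 0.5 and no test was made. Within quintiles of width the fold stayed higher with Klf4 in both lists, by a log2 difference of 0.16 in the narrowest and 0.53 in the widest quintile. In the narrowest quintile 53.0% of regions with Klf4 and 25.9% of those without were near a gene end, and in the widest 40.9% and 31.8%. The share of regions with a Klf4 site was 18.5% in the narrowest and 54.0% in the widest quintile. Counted per kb of region, Klf4 sites went the other way, with 0.350 per kb in the narrowest and 0.185 per kb in the widest quintile. A site counted on 1 bp in common, so dividing by region width alone raises the value of narrow regions by construction. In 40.1% of overlapping pairs the midpoint of the Klf4 site lay outside the H3K27ac region. A site meeting 2 or more regions counts once for each, and its midpoint can lie in only 1 of them. With H3K27ac peaks within 1 kb joined, 8.47% of 10084 midpoints lay outside. How much of the difference per kb comes from counting on 1 bp was not tested.

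Many Klf4 sites did not lie within a single H3K27ac region but reached across the gap between neighbours. Of the 9800 acetylated sites 5148 (52.5%) lay wholly inside an H3K27ac region and 2636 (26.9%) crossed 1 edge of one. A further 1960 (20.0%, 95% Wilson interval 19.2 to 20.8) bridged 2 or more H3K27ac regions, and 56 covered a whole region. The gaps were short, with a median of 135 bp and quartiles of 86 and 198 bp. The bridging class was also found with either H3K27ac list alone, at 23.2% and 27.1% of the sites meeting that list. Bridging sites had a median fold percentile of 65.2, against 57.5 for sites inside a region. They were found in all 3 Klf4 lists in 53.5% of cases, against 47.3% for sites inside, and lay near a gene end in 34.2%, against 42.8%. These classes were formed after the overlap values had been seen. Deposited peak names carry letters that split a broad enriched stretch into sub-peaks, so where a region ends depends on the peak caller. When H3K27ac peaks within 1 kb were joined, which closes gaps of this size by construction, 68.1% of 10084 midpoints of Klf4 sites lay in the central 50% of the joined region.

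The bridging site at Ass1, an enzyme of arginine synthesis, was the second strongest of all acetylated sites found in 3 lists (chromosome 2, 31469762 to 31470378). Its Klf4 folds were 39.0, 13.9 and 35.2. The H3K27ac region to its left (31469245 to 31469978) had folds of 11.7 and 8.88 and the one to its right (31470137 to 31471748) had 15.3 and 17.1, with a gap of 158 bp between them. At Grhl2, a grainyhead factor that maintains epithelial junctions, a bridging site inside the gene (chromosome 15, 37289632 to 37290153) had Klf4 folds of 15.8, 13.0 and 21.0. Its gap of 113 bp was flanked by H3K27ac regions with folds of 6.39 and 6.89 on the left and 4.75 and 6.00 on the right. Grhl2 was picked out after its values had been seen.

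**Figure D4:**
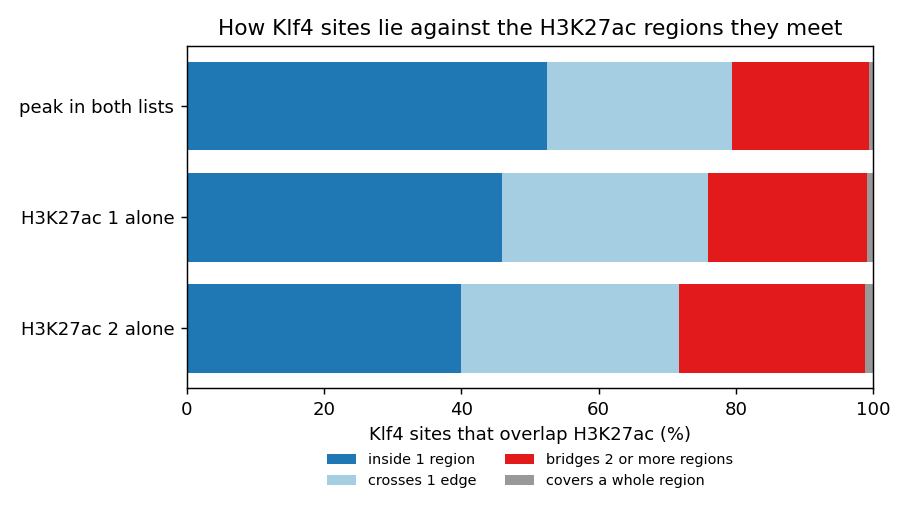
Share of H3K27ac-overlapping Klf4 sites (%) that lie inside 1 H3K27ac region, cross 1 edge, bridge 2 or more regions or cover a whole region, for regions with a peak in both H3K27ac lists (top) and for each list alone. The bridging class makes up 20.0%, 23.2% and 27.1%.

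Some H3K27ac regions held several Klf4 sites. A single site was found in 9736 regions, 2 in 793, 3 in 100, 4 in 27 and 5 in 6. The median width was 1374 bp for regions with 1 site and 13093 bp for those with 4, so the count went with the length of the region. The 6 regions with 5 sites lay at or near H2-M5, Nlrp12, Tet1 (a DNA demethylase of naive cells), Mid1, Rhof and Cnn3. Among those with 4 sites were regions at Esrrb, an orphan nuclear receptor, at Fgf4, a growth factor made by naive cells, and at Dppa5a, a stem cell marker. Others of these 27 lay at genes such as Mapt, Mcl1, Usp48 and Agtrap. The share of stem cell genes among them was not counted. The Fgf4 region (chromosome 7, 144852747 to 144869604) had H3K27ac folds of 33.6 and 31.8, and its 4 Klf4 sites had folds between 3.69 and 13.4. These regions were named after their counts had been seen.

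The strongest sites of each class were named by 1 rule. Strength was the mean percentile of fold within the lists, over regions with a peak in every list of the antibody, and the 10 strongest of each class took the name of the nearest gene within 20 kb. Of the 10 strongest acetylated Klf4 sites, 7 had such a gene. Besides Ass1 these were Src, a tyrosine kinase, Uspl1, a SUMO protease, Fbxo15, an F-box gene long used as a stem cell reporter, Klhdc8a, Dst, a cytoskeletal linker, and Adh5, which detoxifies formaldehyde. H3K27ac folds at these sites ranged widely. The Src site had Klf4 folds of 29.1, 14.0 and 27.01 but H3K27ac folds of 3.98 and 5.64. The Fbxo15 site had Klf4 folds of 23.9, 10.4 and 45.7 with H3K27ac folds of 31.6 and 34.1.

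Among the 10 strongest Klf4 sites without H3K27ac, 9 had a gene within 20 kb, and none of the 10 met a peak of either H3K27ac list. The genes were Grin1, Map3k6, Prph, Herc1, Klk15, Rad51b, Ptpn22, Elavl3 and S100a13. Grin1 (an NMDA receptor subunit), Prph (the neuronal filament protein peripherin) and Elavl3 (a neuronal RNA-binding protein) are known for expression in neurons, and Ptpn22 encodes a phosphatase of lymphoid cells. Map3k6, Herc1, Klk15, Rad51b and S100a13 were not grouped this way. The share of neuronal genes over all genes was not counted, so these names do not describe the class. The site inside Grin1 (chromosome 2, 25292689 to 25293332) had Klf4 folds of 30.1, 13.8 and 47.0 and was 19.4 kb from the nearest H3K27ac region. The site inside Prph (chromosome 15, 99055583 to 99056955) had folds of 30.4, 16.7 and 32.7 at a distance of 10.3 kb. The Map3k6 site (chromosome 4, 133250428 to 133251532) had 23.1, 16.9 and 42.0 at 25.1 kb. These folds were in the range of the strongest acetylated sites. Only the S100a13 site was within 1 kb of a gene end.

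On the side of the mark, the 10 strongest H3K27ac regions with Klf4 included regions at Dido1, Phc1 (a polycomb subunit), Srsf6 (a splicing factor) and Hsp90ab1 (a chaperone), and also at Ypel4, Nucks1, Kmt2e and Morf4l1. The Phc1 region (chromosome 6, 122336537 to 122347571) had H3K27ac folds of 54.3 and 50.1 and held 3 Klf4 sites, the strongest with folds of 6.72, 7.11 and 6.73. The 10 strongest regions with no Klf4 peak in any list included those at Bicral, Alkbh1, Atp6v0c, Ddx6, Rpl17, Cnot1, Epc2, U2af1l4 and Btf3. Rpl17 encodes a ribosomal protein, Ddx6 an RNA helicase, Cnot1 the scaffold of the deadenylase complex and Btf3 a factor bound to nascent chains. The H3K27ac folds were 57.3 and 55.0 at Bicral and 48.9 and 46.1 at Ddx6, close to those of the Phc1 region. The Bicral region alone was more than 1 kb from a gene end. These classes describe regions and not genes. Bicral also overlapped an acetylated Klf4 site (chromosome 17, 46812018 to 46812797) with Klf4 folds of 20.2, 11.5 and 18.5.

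Klf4 sites without H3K27ac lay at widely varying distances from the mark. The nearest H3K27ac region was at a median of 18.7 kb, with quartiles of 5.30 and 52.8 kb. It was within 1 kb for 10.98% of these sites and within 20 kb for 51.4%, and 500 sites (11.9%) were more than 100 kb from any H3K27ac region. H3K27ac regions without Klf4 were at a median of 27.5 kb from the nearest Klf4 site. In all, H3K27ac regions covered 53.2 Mb, 23.0 Mb in regions with Klf4 and 30.3 Mb in regions without.

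Nearly all genes of the naive network had an acetylated Klf4 site, while the few Klf4 sites near germ layer regulators mostly lacked the mark. Of 21883 protein-coding genes 9075 (41.5%) had an acetylated Klf4 site within 20 kb. A Klf4 site without H3K27ac was the only kind for 9.26%, 22.4% had H3K27ac without any Klf4 site and 26.9% had neither. Sites without the mark are called bare. At least 1 bare site was near 19.5% of all genes, and 3.3% had one and no H3K27ac region at all. The count of 9075 was 5831 without Klf4 list 2, 5865 when peaks needed a −log10 q of 5 or more, and 5649 with sites in all 3 Klf4 lists. Lists are described by counts with no test, and a site within 20 kb of several genes counts for each. Of 30 naive pluripotency genes 27 had an acetylated Klf4 site, and the sites linked to the list numbered 79 with the mark and 3 without. The exceptions were Nr0b1 and Gbx2, with a bare site, and Stat3, the LIF effector, with H3K27ac only. The Nr0b1 site (chromosome X, 86193463 to 86193819) had folds of 4.24 and 2.69 in lists 1 and 2, and no peak in list 3, and lay only 0.059 kb from the nearest H3K27ac region. The third bare site lay by Sall4, which also had acetylated ones.

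In the Klf family 14 of 17 genes had an acetylated site. At Klf3 a site overlapping an end of the gene (chromosome 5, 64802732 to 64803647) had Klf4 folds of 16.8, 7.01 and 43.7 with H3K27ac folds of 27.4 and 27.4. At Klf14 both sites were bare, with folds of 4.63, 3.21 and 4.88 for the one found in all lists, and lay over 60 kb from H3K27ac. An acetylated site was also near 15 of 20 housekeeping genes, 20 of 24 cell cycle genes, 20 of 24 chromatin regulators and 11 of 15 glycolysis genes. The cell cycle and chromatin lists hold some genes of restricted expression, such as Mycn and Tet1. Ppia, a cyclophilin, had a site with Klf4 folds of 27.3, 14.8 and 22.2 (chromosome 11, 6412903 to 6413679). All of these shares were above the 41.5% of all genes, as in the naive list. Of the sites linked to housekeeping genes 96.9% were acetylated, beside 96.3% of those linked to the naive list. The share was 93.75% for glycolysis, 91.5% for chromatin regulators and 81.25% for cell cycle genes. A high acetylated share of linked sites was therefore not particular to the naive list.

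Epithelial junction and keratin genes had sites of both classes. An acetylated site was near 19 of 26, and at least 1 bare site was near 14, against 19.5% of all genes. The linked sites were 38 with H3K27ac and 16 without, an acetylated share of 70.4% beside 69.9% of all Klf4 sites. Cldn4, a claudin, had a site with Klf4 folds of 15.8, 7.76 and 9.30 in an H3K27ac region with folds of 27.2 and 24.5 (chromosome 5, 134945185 to 134945685). Jup, the junction protein plakoglobin, had one with 16.2, 9.66 and 8.72 and H3K27ac folds of 36.6 and 34.8. Bare sites were the only kind at 5 genes: the keratins Krt18 and Krt7 and the desmosomal plakophilins Pkp1, Pkp2 and Pkp3. The Pkp1 site (chromosome 1, 135857131 to 135857530) had folds of 4.18, 5.36 and 12.7 and was 89.7 kb from H3K27ac, and the Pkp2 site had folds of 4.24 and 14.7 in lists 2 and 3 and no peak in list 1.

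Of 20 germ layer regulators 2, Tbx20 among them, had an acetylated site and 6 had bare sites only: Gata6, Sox7, Eomes, Gata3, Myod1 and Pax7. The sites linked to this list were 2 with H3K27ac and 9 without, a share of 18.2%. Gata6, Sox7 and Myod1 had no H3K27ac region within 20 kb. The only one found in all 3 lists lay 16.9 kb from Myod1, the muscle determination factor, with folds of 4.63, 3.29 and 6.75 (chromosome 7, 46396034 to 46396508). At Sox7, an endoderm factor, a site 2.47 kb from the gene had folds of 3.90 and 6.85 in lists 2 and 3 and was 79.8 kb from H3K27ac. Of the other lists, 16 of 24 LIF, Wnt and Bmp signalling genes, 6 of 12 neural progenitor genes, 6 of 13 primed epiblast genes and 4 of 12 feeder fibroblast genes had an acetylated site. At Dnmt3a, a DNA methyltransferase in the primed list, both sites were bare, and the stronger had Klf4 folds of 9.24, 8.72 and 12.5.

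**Figure D5:**
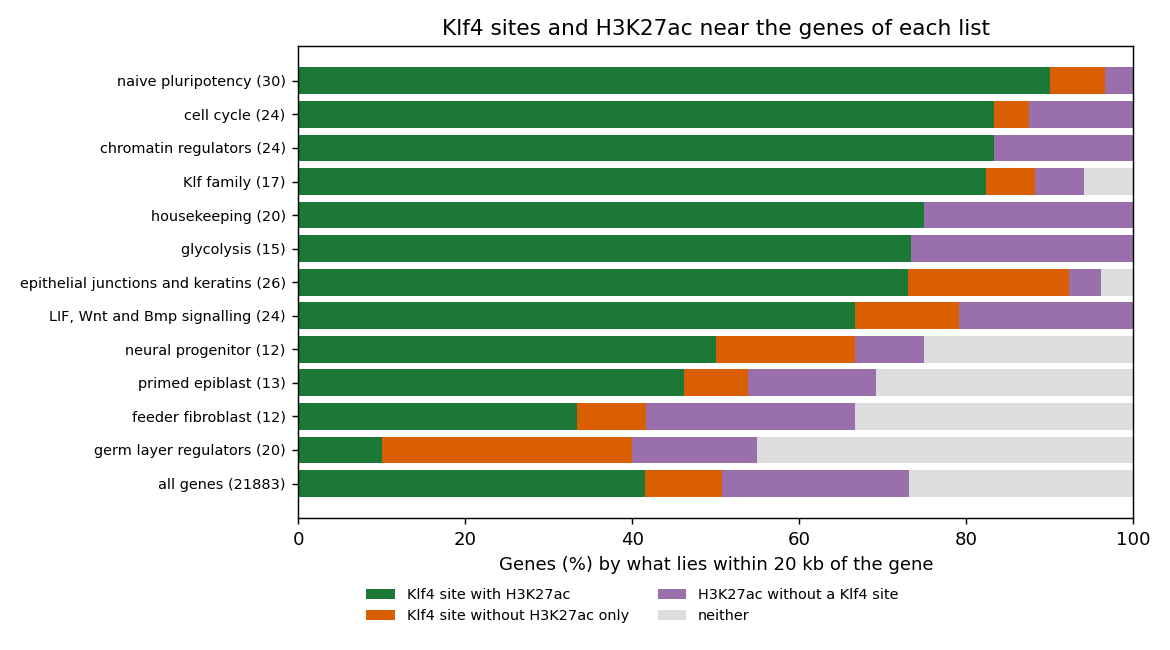
Genes of each list (%, number of genes in brackets) by what lies within 20 kb of the gene: a Klf4 site with H3K27ac, only Klf4 sites without it, H3K27ac without a Klf4 site, or neither. The naive pluripotency list is at the top with 27 of 30 genes in the first class, germ layer regulators hold 2 of 20, and all 21883 genes are at the bottom with 41.5%.

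Other factors and the mitotic state were read at the same sites. A peak of the single asynchronous Oct4 list lay at 9.19% of acetylated Klf4 sites and 4.84% of sites without H3K27ac, and a peak of the single Sox2 list at 8.70% and 3.49%. In cells collected in mitosis with nocodazole, which blocks the spindle, the 3 Klf4 lists held a peak at 36.2%, 23.1% and 49.7% of acetylated sites, against 16.7%, 8.75% and 31.8% of sites without H3K27ac. All 5 lists had the higher share at acetylated sites, overall and within each quintile of Klf4 site width. In the widest quintile the mitotic shares were 60.2%, 44.5% and 62.9% at acetylated sites and 46.8%, 33.3% and 51.4% at the others. The lists differed in length, with 5754, 3795 and 8438 peaks in mitotic Klf4 lists 1, 2 and 3, 3347 for Oct4 and 2986 for Sox2. Titles of mitotic list 3 and of the Oct4 and Sox2 lists share a code with asynchronous Klf4 list 3. Those of mitotic lists 1 and 2 share another code. Oct4 and Sox2 had 1 library each, so these 2 differences have no replicate check.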

How the data were processed

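Peak lists of 3 Klf4 and 2 H3K27ac ChIP-seq libraries from asynchronous V6.5 cells were used, with Oct4, Sox2 and mitotic Klf4 lists for the readouts at the end. Per the labels' protocols, fixation was for 10 min in 1% formaldehyde, and reads were single, of 50 nt. The submitters' processing notes name cutadapt 1.8.1, Bowtie2 2.2.5, deepTools 2.3.6, MACS2 2.1.1 and mm10. As deposited by the authors, each peak has a fold enrichment (a ratio to local background) and −log10 p and −log10 q values, with a −log10 p just above 5 as the lowest in each list. Each list holds the peaks of 1 library, no summits are given, and 50.0% to 67.3% of the numbered peaks are listed. Read depth is not given in the sources used here.

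Lists were merged, overlapped (1 bp) and compared with Python 3.11.15, numpy 2.4.6, pandas 2.3.3 and scipy 1.17.1, and drawn with matplotlib 3.10.9. Libraries, not regions, were the replicates of each test. Genes (21883, protein-coding) and promoters came from RefSeq tables of GRCm38.p6. Region sequence was not used here, so the consensus was counted in promoters only. The overlap code was tested on simulated peaks. Text names the 10 strongest regions of each class with a gene within 20 kb, genes of the gene lists, and others said to be chosen after their values were seen. Some genes that this rule names are not reported here. Members and gene lists were chosen with earlier results of these data known. Alternatives changed the peak threshold, overlap, set rules, list length, joining, windows and libraries.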

Additional observations from a re-analysis of the deposited data

How the results depend on the processing

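No result changed sign under any alternative run. The differences in Klf4 fold and width between acetylated sites and sites without H3K27ac moved by less than their SD over lists in all 13 settings each, between 0.10 and 0.18 and between 0.31 and 0.42 on the log2 scale. The SD over the 2 H3K27ac lists is small, so most settings moved the H3K27ac results by more than it. No cause was tested where values moved. With −log10 q of at least 5, 72.3% of Klf4 sites were acetylated and 22.1% of H3K27ac regions held Klf4. The gene end differences were then 16.7 points for Klf4 and 10.8 for H3K27ac, the difference in sites found in all 3 lists 13.6 points, the H3K27ac log2 width and fold differences 0.50 and 0.54, and 5865 genes had an acetylated site. With 50% of the Klf4 region covered, the same values without the gene count, in that order, were 56.5%, 24.6%, 17.4, 19.6, 16.3, 0.79 and 0.84. With H3K27ac in either list, the shares were 74.7% and 22.8%, the H3K27ac gene end difference 21.7, the difference in all 3 lists 18.1, and the log2 width and fold differences 0.76 and 0.82. With Klf4 in any list, the shares were 57.9% and 44.9%, the H3K27ac gene end difference 18.7, the difference in all 3 lists 18.03 and the log2 fold difference 0.65. With Klf4 in all 3 lists, the shares were 78.4% and 15.6%, the H3K27ac gene end difference 19.1, the log2 width and fold differences 0.61 and 0.73, and the genes 5649. With lists of equal length, the shares were 74.8% and 23.1%, the H3K27ac gene end difference 13.7, the difference in all 3 lists 14.8, and the log2 width and fold differences 0.63 and 0.70. With H3K27ac joined within 1 kb, the shares were 71.95% and 33.1%, the H3K27ac gene end difference 18.5, the difference in all 3 lists 16.2, and the log2 width and fold differences 0.63 and 0.71. The H3K27ac gene end difference was 17.1 within 2.5 kb and 17.4 with gene starts only, an alternative chosen after seeing the data. Against sites with no peak in either H3K27ac list, also chosen after seeing the data, the Klf4 gene end difference was 24.8 and that in all 3 lists 18.7. Against H3K27ac regions with no Klf4 peak in any list, again chosen afterwards, the gene end difference was 21.0 and the log2 width and fold differences 0.66 and 0.75.

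Leaving out each of the 5 lists in turn gave acetylated shares of 70.2 to 77.1% and H3K27ac shares of 16.0 to 24.8%, the lowest without Klf4 list 2. The Klf4 gene end difference was then 19.7 to 24.3 and, leaving out H3K27ac lists alone, that in all 3 lists was 18.17 to 18.21. For H3K27ac the gene end difference was 9.55 to 24.5, lowest without Klf4 list 3, the log2 width difference 0.52 to 0.83 and the log2 fold difference 0.68 to 0.87. Genes with an acetylated site numbered 5831 to 9274. No paired analysis was possible because replicate numbers of the Klf4 and H3K27ac lists come from different libraries and the results compare regions within each list. At unknown depth, a site without a listed H3K27ac peak cannot be told apart from one whose mark fell short of the threshold.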

Other observations

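The X chromosome stood apart in how often H3K27ac regions held Klf4. Of 979 H3K27ac regions on the X, 12.3% held a Klf4 site, while the autosomes ranged from 26.9% to 33.4% with a median of 31.3%. Per 100 H3K27ac regions there were 14.7 Klf4 sites on the X and 34.3 to 48.6 on the autosomes. The share on the X was below that on the autosomes in every quintile of region width, with 5.31% against 18.9% in the narrowest and 34.8% against 54.4% in the widest. Single H3K27ac lists gave 9.73% and 9.84% of X peaks against 24.3% and 25.2% of autosomal peaks. The median H3K27ac fold was 6.36 and 6.34 on the X, against 6.03 and 5.95 on the autosomes. Seen from Klf4, 72.2% of 144 sites on the X were acetylated, inside the autosomal range of 64.1% to 74.7%. This comparison was chosen after the values had been seen and was not tested.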
